A study of Ovis aries with 32 samples.

Results

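INHA encodes the inhibin alpha subunit, and it was followed across all 32 sheep heart arrays of a study of lambs whose mothers received cortisol in late pregnancy. It was 1 of 780 genes on the array that were named here from the scanner files and RefSeq, and it was read by 2 of 15008 gene probes. The study had its own annotation of the array, which was not used here. INHA was chosen by its measured difference between treatments in the left ventricle, so that difference is described here without a test. INHA also stands in the study's own list of changed left ventricular genes, which was drawn from these same arrays. Its level against the negative controls, the agreement of its probes, its septal difference and its tissue difference were not used to choose it.

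Inhibins pair the alpha subunit with an activin beta subunit, whereas activins are dimers of beta subunits alone. Activins act through type II and type I receptors and SMAD2 and SMAD3, follistatin binds them, and inhibin held by the co-receptor betaglycan competes for the type II receptors. The alpha subunit is best known from the gonads, where it takes part in the restraint of follicle stimulating hormone, and activin signalling is also studied in cardiac growth and fibrosis.

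The 4 groups held 8 lambs each, labelled as 14 days old. In the CORT groups the ewe received cortisol at 0.5 mg/kg/day from about day 115 of gestation until birth. The methods state that it was infused overnight only and not around the clock. In the Control groups the ewe had no infusion. The study counts both male and female lambs in each group, and sex was not part of any fit here. The lambs themselves were not infused, and the Control ewes received no vehicle. RNA of the left ventricular free wall (LV) and of the interventricular septum (IVS) was hybridized to 1-colour arrays. Some ewes carried twins and the labels do not tie lambs to ewes, so p-values measure the spread between these samples and not between litters. The methods state that both tissues came from the same hearts, so the septum is a second tissue and not a second set of animals.

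The probes are printed because their overlap makes them a repeat measurement on each array. Both are 60 bases long and share 59 of them, and the capital marks the base that only that probe holds.
A_70_P016837: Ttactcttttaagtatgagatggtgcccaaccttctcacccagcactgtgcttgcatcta
A_70_P016836: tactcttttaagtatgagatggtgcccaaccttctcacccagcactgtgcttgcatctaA
They start at bases 739 and 740 of the transcript used for the design, and the scanner files list both as unmapped on the genome. Their spots lie far apart, at row 137, column 30 and at row 26, column 68. The first probe is used below unless the second is named.

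INHA was measured well above background in both parts of the heart. Its raw spot intensity ran from 241 to 1437 with a median of 659 arbitrary units over the 32 arrays. This was 4.37 to 21.4 times the 95th percentile of the 77 negative control spots on the same array. The spot passed the scanner's test for being well above background on 32 of 32 arrays, was saturated on 0 and had an outlier flag on 0. It exceeded the highest negative control spot on 31 arrays. The exception was IVS Control replicate 2, where INHA read 532 and 1 negative control spot read 535, against a 95th percentile of 70.5. As spot brightness, which depends on the probe as well as on the RNA, INHA stood between the 50.3 and the 83.8 percentile of the gene probes of an array.

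**Figure D1:**
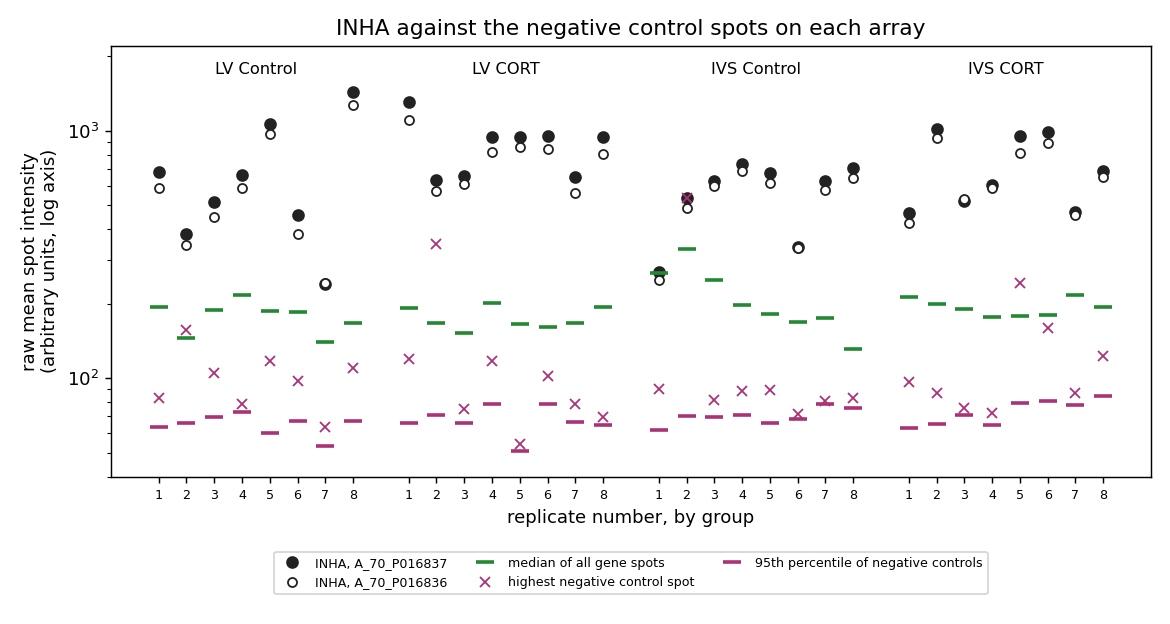
Raw mean spot intensity (arbitrary units, log axis) of both INHA probes on each of the 32 arrays, by group and replicate number, with the median of all gene spots and the 95th percentile and highest of the negative control spots. INHA lies at least 4.37 times above the 95th percentile everywhere for the first probe, and the highest negative control spot reaches it only in IVS Control replicate 2.

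The paired probes gave nearly the same order of lambs. After treatment means were removed, their normalized log2 values correlated with r = 0.993 in the LV and 0.997 in the IVS over 16 arrays each. The SD of their difference was 0.063 in the LV and 0.057 in the IVS on the log2 scale. Read as error of single spots, this was 0.675% of the variance between LV lambs and 0.338% of that between IVS lambs. Of 144 other probe pairs shifted by 1 base in the LV, 32 had a smaller SD of the difference, as did 11 of 153 in the IVS. Both spots share RNA, labelling and array, so error from those steps is not included.

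**Figure D2:**
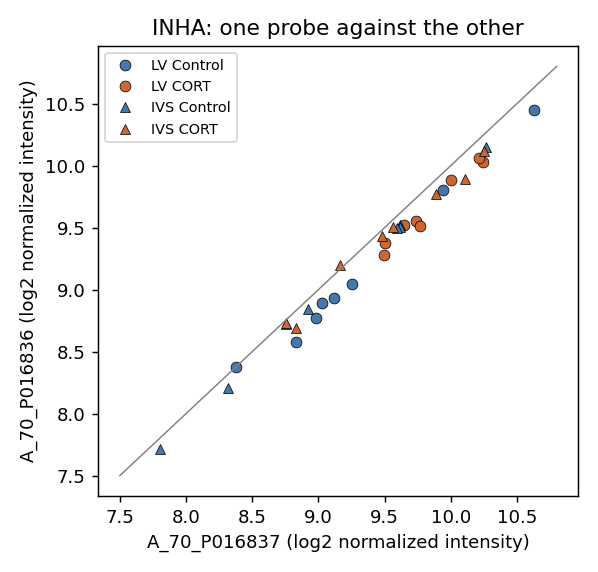
Normalized log2 intensity of the second INHA probe against the first, 1 point per array, with circles for LV and triangles for IVS and the line of equal values. The points follow the line with r of 0.993 in the LV and 0.997 in the IVS, the first probe being higher by 0.17 and 0.088 on average.

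INHA was higher on average in the LV of CORT lambs, and the Control lambs were more spread. In the 8 LV Control lambs the lowest normalized level was 8.38, the median 9.07 and the highest 10.63 on the log2 scale. In the 8 LV CORT lambs the lowest level was 9.49, the median 9.75 and the highest 10.24. The groups overlapped: 6 Control lambs lay below the lowest CORT lamb, while Control replicates 5 and 8, at 9.94 and 10.63, lay above the CORT median. All 8 CORT values fell within the Control range. The means were 9.27 ± 0.70 (SD, n = 8) for Control and 9.82 ± 0.30 (SD, n = 8) for CORT.

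The LV difference was 0.56 (SE 0.24) on the log2 scale, a 1.47-fold higher level in CORT, and is the value INHA was chosen for. The second probe gave 0.54 (SE 0.24). Of the 11518 LV probes above the brightness limit, which asked for a signal over 10% above the 95th percentile of the negative controls on at least 8 arrays, 0.304% had a larger absolute difference. INHA was also a variable gene: its pooled SD within groups was 0.54 against a median of 0.163, and 2.59% of probes had a larger one. In the LV 3.85% of all probes passed an unadjusted limma p of 0.05 and 0 passed after Benjamini-Hochberg adjustment.

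Slide by slide, the LV difference had the same direction on both slides and differed in overlap. On slide 1 the 4 Control lambs lay from 8.98 to 9.25 and the 4 CORT lambs from 9.50 to 10.24, with no overlap and a mean difference of 0.69. On slide 2 the 4 Control lambs lay from 8.38 to 10.63 and the 4 CORT lambs from 9.49 to 10.21, with a mean difference of 0.42. The lowest and the highest Control level of the LV were thus both on slide 2.

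**Figure D3:**
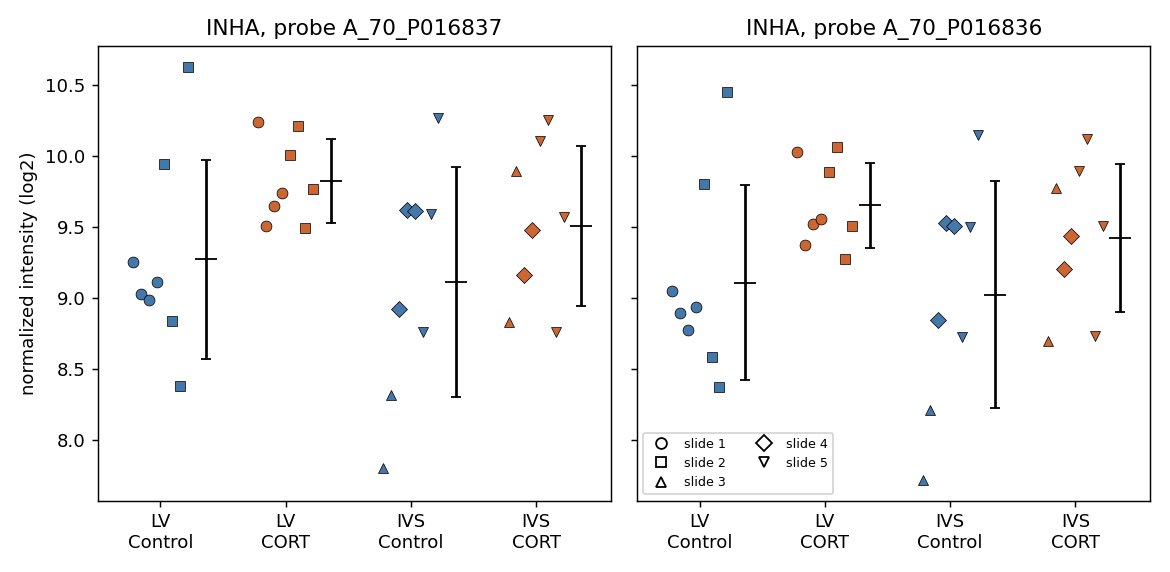
Normalized log2 intensity of both INHA probes in each lamb, by tissue and treatment, with the slide shown by the marker and the mean and SD of 8 lambs beside each group. LV CORT lambs sit between 9.49 and 10.24 inside the wider LV Control range of 8.38 to 10.63, and both IVS groups overlap over most of their range.

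In the IVS the difference in INHA was smaller than its spread. The 8 IVS Control lambs had a lowest level of 7.80, a median of 9.26 and a highest of 10.27. The 8 IVS CORT lambs had a lowest level of 8.76, a median of 9.52 and a highest of 10.25. Only 3 Control lambs lay below the lowest CORT lamb, and 4 lay above the CORT median. Control lambs averaged 9.11 ± 0.81 (SD, n = 8), and CORT lambs averaged 9.51 ± 0.56 (SD, n = 8).

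The IVS difference was 0.40 (SE 0.32) on the log2 scale, with a 95% interval from -0.27 to 1.06. As a fold this is 1.32, with an interval from 0.828 to 2.09, which holds both no difference and the size described in the LV. It did not pass limma (unadjusted p = 0.229, Benjamini-Hochberg adjusted p = 0.993), and an exact two-sided permutation test over 12870 assignments gave p = 0.272. The level lay above the Control mean in 6 of 8 CORT lambs. The second probe gave 0.40 (SE 0.31) with an unadjusted limma p of 0.212. In the IVS 3.59% of 11685 probes passed an unadjusted limma p of 0.05 and 0 passed after adjustment.

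Most of the IVS difference lay on 1 slide. On slide 3, with 2 Control and 2 CORT lambs, the mean was 8.06 in Control and 9.36 in CORT, a difference of 1.30. On slide 4, with 3 Control and 2 CORT lambs, the difference was -0.065, and on slide 5, with 3 Control and 4 CORT lambs, it was 0.13. Slide 3 held the 2 lowest Control lambs of the septum, replicates 1 and 2. Without Control replicate 1 the IVS difference was 0.21. Whether the LV and IVS differences differ from each other was not tested, since the LV value chose the gene.

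**Figure D4:**
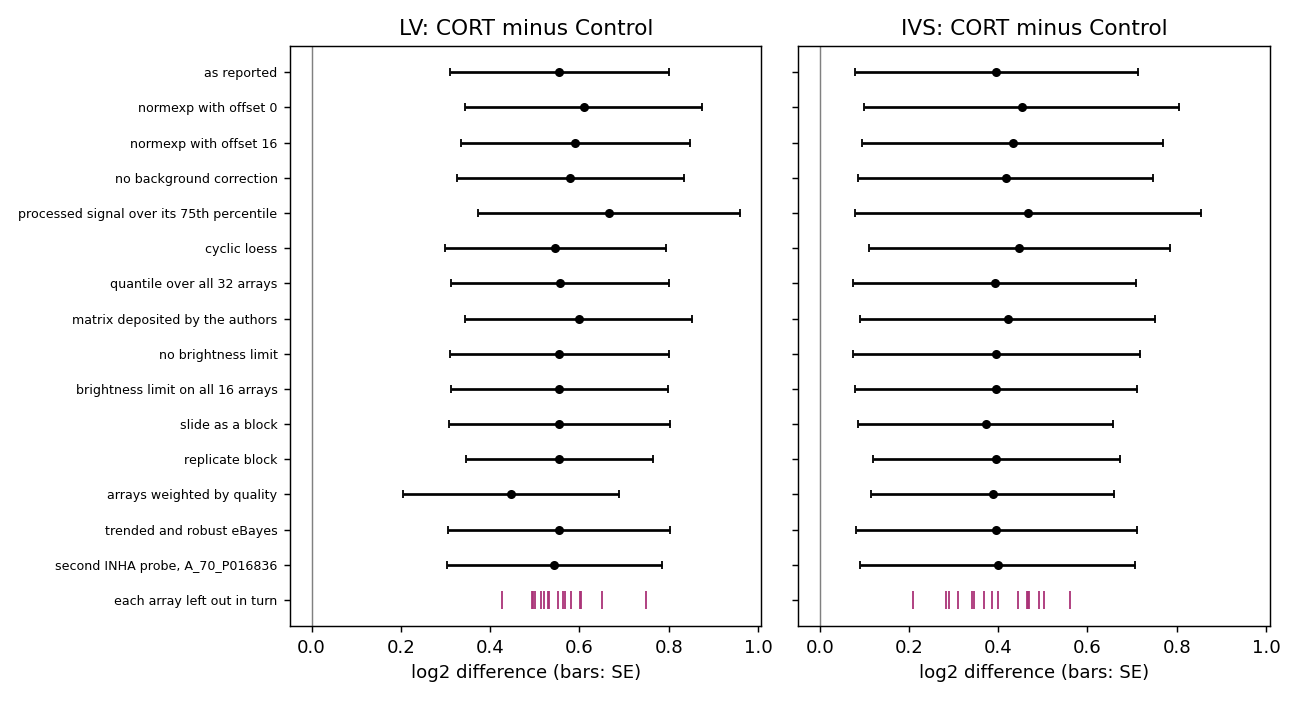
Difference in INHA between CORT and Control lambs (log2, bars are SE) in the LV and IVS as reported and under 14 alternatives, with a tick for each of 16 fits that leave out 1 array. All values are above 0, from 0.43 to 0.75 in the LV and from 0.21 to 0.56 in the IVS when 1 array is left out.

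Between tissues, INHA was lower in the septum by less than could be told from the slides. With all 32 arrays normalized together, the group means in falling order were 9.90 ± 0.29 in LV CORT, 9.43 ± 0.56 in IVS CORT, 9.34 ± 0.70 in LV Control and 9.04 ± 0.80 in IVS Control (SD, n = 8 each). Each neighbouring pair in this order differed by less than the larger of its SDs. Averaged over treatments, IVS minus LV was -0.39 (SE 0.21), with a 95% interval from -0.81 to 0.039 (limma unadjusted p = 0.0738, adjusted p = 0.224). Over all probes 11.9% passed the adjusted threshold in this comparison. The fit took the 32 arrays as independent although the methods describe both tissues as taken from the same hearts.

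Each slide held 1 tissue, so tissue and slide cannot be told apart. Slide means of INHA were 9.51 and 9.73 for the LV and 8.64, 9.28 and 9.54 for the IVS. With slide as a random block the difference was -0.44 (SE 0.36, limma adjusted p = 0.705), and 0.143% of all probes passed. Slides 1, 2 and 5 were scanned on the same day, and over these alone it was -0.090 (SE 0.25, limma unadjusted p = 0.719).

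Other genes of the inhibin and activin pathway gave no call in either tissue in the fit without slide. Of 33 genes listed besides INHA, 13 had a named probe, and 10 of these passed the brightness limit in the LV and 9 in the IVS. By limma, 0 of 10 in the LV and 0 of 9 in the IVS passed an unadjusted p of 0.05. Of all probes, 3.85% in the LV and 3.59% in the IVS passed it, so with so few genes 0 does not set them apart. After adjustment 0 of these genes and 0 of all probes passed in either tissue. With slide as a block, 2 of 9 passed an unadjusted p of 0.05 in the IVS, SMAD2 and TGFBR3, where 7.52% of all probes did, and 0 passed after adjustment. The median difference of the listed genes was -0.019 in the LV, where that of all probes was 0.0015. In the IVS it was 0.031, where that of all probes was -0.0082. The brightest probe of each gene was used, and the second probe had the opposite sign for SMAD4 (0.079) and SMAD7 (0.047) in the LV and for ACVR2A (-0.071) in the IVS.

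INHBA, the beta A subunit that pairs with INHA in inhibin A, had the largest difference of these genes in the LV. Its level ran from 8.10 to 9.93 in LV Control and from 8.35 to 10.24 in LV CORT, so the groups overlapped over most of their range. The difference was 0.36 (SE 0.29) in the LV (limma unadjusted p = 0.236) and 0.048 (SE 0.22) in the IVS. Among binding proteins, FST, which encodes follistatin, differed by 0.12 (SE 0.14) in the LV and 0.18 (SE 0.16) in the IVS. TGFBR3, which encodes betaglycan, differed by -0.038 in the LV and 0.18 in the IVS (limma unadjusted p = 0.0951).

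Among the receptors, ACVR2A, a type II receptor, differed by 0.10 in the LV and 0.031 in the IVS. ACVR2B, the other type II receptor, differed by -0.11 and 0.046, and the type I receptor gene ACVR1 by 0.075 and -0.20. Among the signal carriers, SMAD2 differed by -0.031 in the LV and -0.20 in the IVS (limma unadjusted p = 0.0545). SMAD4, the shared partner, differed by -0.0080 and -0.11, and SMAD7, an inhibitor of the pathway, by -0.048 and -0.018. SMAD3 passed the limit only in the LV, at -0.038. ACVR1B, IGSF1 and MSTN, which encodes myostatin, did not pass it in either tissue.

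**Figure D5:**
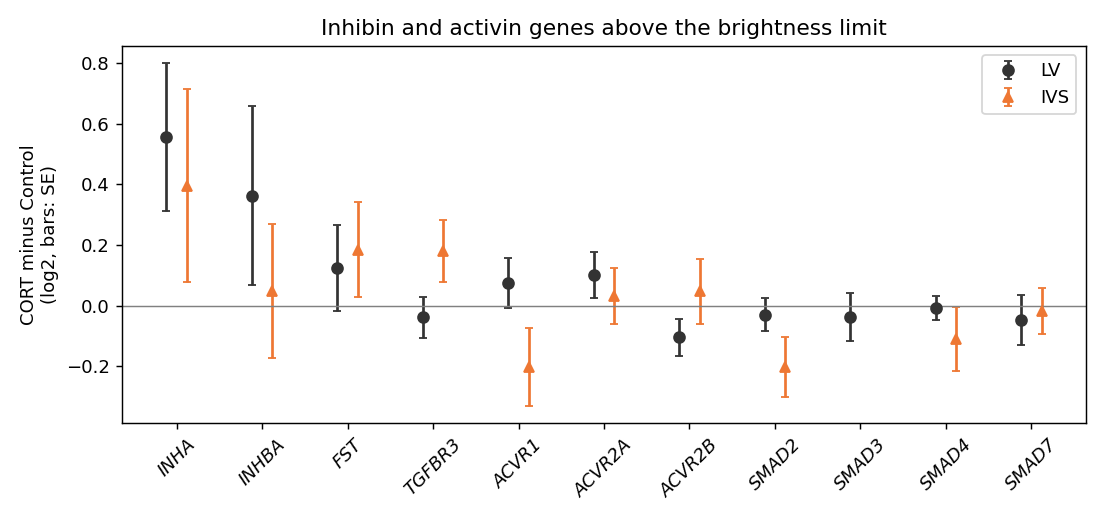
Difference between CORT and Control lambs (log2, bars are SE) for INHA and the 10 other pathway genes above the brightness limit, with circles for LV and triangles for IVS. INHA has the largest value in both tissues, the one it was chosen for in the LV. In this fit, which leaves slide out, 0 of the other genes pass an unadjusted limma p of 0.05. Of all probes, 3.85% in the LV and 3.59% in the IVS pass it.

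Between tissues 0 of 10 of these genes passed an unadjusted limma p of 0.05 in the fit without slide, where 28.4% of all probes did. The median IVS minus LV difference of these genes was -0.070, where that of all probes was 0.0070. The smallest unadjusted limma p was that of TGFBR3, at 0.0771. With slide as a random block 0 of 10 passed as well, where 11.3% of all probes did.

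Genes of gonadotropin action and steroid synthesis were listed because INHA is known from such cells. Of 15 genes, 10 had a named probe and 5 passed the brightness limit, namely CREM, CYP17A1, FSHR, LHB and NR5A1. By limma 0 of 5 passed an unadjusted p of 0.05 in either tissue, where 3.85% of all probes did in the LV and 3.59% in the IVS. The largest difference of the 5 was that of LHB in the IVS, at 0.49 (SE 0.35), against -0.020 (SE 0.10) in the LV. LHB ran from 11.30 to 12.61 in IVS Control (SD 0.44) and from 11.90 to 14.60 in IVS CORT (SD 0.99). Of the genes that define steroid-making cells, CYP17A1 was above the limit on 16 arrays of each tissue. NR5A1 was above it on 11 in the LV and 8 in the IVS. STAR was above it on 6 and 7 arrays, short of the 8 asked for, and CYP11A1 on 0 and 0. LHCGR was above it on 3 and 7 arrays, CGA on 1 and 1, and FSHB on 0 and 0, so these also fell short.

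Of 19 cardiomyocyte markers only MB, which encodes myoglobin, had a named probe, and it was above the brightness limit on 16 of 16 arrays in each tissue. At an unadjusted limma p of 0.05, CD14 of the leukocyte list fell by 0.16 and COL3A1 of the fibroblast list fell by 0.28 in LV CORT lambs, both with an adjusted p of 0.999 and where 3.85% of all probes passed. The other members above the limit were CD3E at 0.15 and LYZ at -0.44 of the leukocyte list and DCN at 0.078 of the fibroblast list, and none of these passed. In the IVS COL3A1 differed by 0.098 and DCN by 0.18. CD14, read there by its other probe, differed by -0.11, CD3E by -0.027 and LYZ by -0.17. None of these IVS values passed an unadjusted limma p of 0.05, where 3.59% of all probes did. The summed level of the 3 leukocyte markers above the limit was 384 to 1081 in LV Control and 438 to 598 in LV CORT. That of the 2 fibroblast markers was 26804 to 48483 in LV Control, with a median of 32137. In LV CORT it was 31350 to 40832, with a median of 35478. Sums were taken on the linear scale, and the fibroblast sum is nearly all DCN. The mean log2 level in LV Control was 15.03 for DCN and 9.02 for COL3A1. The part of these markers in the INHA difference was not tested. In bulk tissue, fewer cells of a type and less RNA per cell cannot be told apart.

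INHA varied between lambs together with a small set of other probes. Likeness was the smaller of the correlations in the LV and in the IVS, each over 16 arrays with treatment and slide removed, and it is a description over arrays that share slides and normalization. Over 11212 probes its median was -0.249. Taking the smaller correlation makes the median negative even for unrelated probes, so this value is no sign of an opposite course. Besides the INHA pair, 95 probes exceeded 0.5. The most like was A_70_P043101, which has no gene name, at 0.748. The 5 most like named probes were the GATA3 probes at 0.733 and 0.662, the HBB probes at 0.669 and 0.634, and the CA11 probe at 0.621. When slide was kept in the values, 2 of these 5 were again among the first 5.

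HBB encodes beta globin, the product of red cells, and was the most variable of these. Its level ran from 11.43 to 16.23 in LV Control and from 12.11 to 15.82 in LV CORT. In the IVS it ran from 9.71 to 15.79 in Control and from 11.88 to 14.79 in CORT. These are levels of the more like probe, whose CORT difference was 0.24 (SE 0.70) in the LV and 0.30 (SE 0.80) in the IVS. The other HBB probe differed by 0.49 (SE 0.65) and 0.56 (SE 0.81). GATA3, a transcription factor gene, differed by 0.18 (SE 0.15) and 0.092 (SE 0.19). Neither passed limma, with adjusted p of 0.999 in the LV and 0.993 to 0.994 in the IVS.

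The mean level of each marker list was also set against INHA over the 16 arrays of a tissue, as a description. HBB was the only erythroid marker that the files or the gene table named, so that list repeats the likeness above. The study's own list of changed LV genes holds another globin gene, HBA1, as lower in CORT lambs. No probe was named HBA1 here, so HBB alone does not describe the red cell genes. After treatment and slide were removed, the endothelial markers had an r of 0.51 in the LV and 0.38 in the IVS, and the adipocyte markers 0.46 and 0.45. The members above the limit differed by tissue, with FLT1 counted only in the IVS and FABP4 only in the LV. FABP4 had an SD of 1.63 in LV Control, against 0.25 for the next adipocyte marker, LPL. The leukocyte markers had an r of -0.59 and -0.42, and the single cardiomyocyte marker MB -0.29 and -0.58. The fibroblast markers had 0.14 and 0.043, the single smooth muscle marker CNN1 -0.28 and 0.18, and the steroidogenic or gonadal markers -0.32 and 0.36.

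Several of these values depended on the removal. Over all arrays without it, r was 0.54 and 0.61 for the endothelial, 0.41 and -0.13 for the adipocyte, -0.55 and -0.47 for the leukocyte and -0.24 and -0.38 for the cardiomyocyte marker list. Of the pathway lists after removal, the SMAD genes had an r of -0.27 and -0.66, and INHBA -0.085 and 0.49. FST and TGFBR3 had -0.10 and 0.48, and the receptors -0.030 and -0.10. Without removal the SMAD genes had -0.24 and -0.51, and INHBA 0.14 and 0.53. FST and TGFBR3 then had -0.0067 and 0.25, and the receptors 0.084 and 0.30. The part of cell content in the INHA values was not tested.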

How the data were processed

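INHA and the gene lists were chosen with earlier results of these data known. Per the labels, RNA of 32 samples was hybridized to 1-colour sheep arrays and read with Agilent Feature Extraction 10.1.1.1. The deposited scanner files hold spot intensity on a linear scale, not normalized. The authors also deposited a matrix of log2 values per tissue, background corrected and quantile normalized in limma, which served as an alternative. Here, mean signals were corrected with normexp (offset 50), quantile normalized per tissue and fitted with limma 3.58.1 in R 4.3.3. The arrays' number limits the precision. The share of probes well above background was 59.7% to 80.4% per array. Treatments were compared within each tissue, and tissues were compared over all arrays. Genes named were INHA, listed pathway genes above the brightness limit and the 5 named probes most like INHA, with small counts named after their values were seen. Probes were named from the files, RefSeq symbols and, for 5, their descriptions. The fits were tested on simulated data. Backgrounds, normalizations, limits, slide, replicate number, weights and single arrays were varied. The marker correlations with treatment and slide removed, the second probe and the same-day slides were added after seeing the data.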

Additional observations from a re-analysis of the deposited data

Results flagged for a closer look

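In 9 of 66 groups of 8 lambs tested among the named genes, 1 lamb stood apart from the other 7 by Dixon's test, which chance gives in about 1 of 20 groups, and INHA was in 0 of the 9. In the LV these were ACVR2A in Control replicate 2 (7.11, others 7.39 to 7.64), ACVR2B in CORT replicate 6 (8.55, others 8.22 to 8.33) and SMAD3 in Control replicate 7 (7.07, others 6.43 to 6.68). Also in the LV were SMAD7 in CORT replicate 3 (6.52, others 6.85 to 7.10), TGFBR3 in Control replicate 6 (8.05, others at most 7.75) and CA11 in Control replicate 8 (8.61, others 7.92 to 8.21). In the IVS, CORT replicate 1 stood apart for ACVR2A (7.14, others 7.57 to 7.73) and for FST (8.998, others 8.02 to 8.41), and Control replicate 3 for SMAD4 (8.77, others 7.98 to 8.35). All are normalized log2 levels.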

How the results depend on the processing

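The INHA difference kept its sign under 14 alternatives in each tissue, from 0.45 to 0.67 in the LV and from 0.37 to 0.47 in the IVS (limma unadjusted p 0.172 to 0.246). Leaving out 1 array gave 0.43 to 0.75 in the LV and 0.21 to 0.56 in the IVS (limma unadjusted p 0.0795 to 0.475). IVS minus LV ran from -0.48 to -0.090, and from -0.47 to -0.29 with 1 array left out. Its unadjusted limma p passed 0.05 without LV Control replicate 7 (-0.45, limma adjusted p = 0.148), IVS Control replicate 8 (-0.47, limma adjusted p = 0.107) or IVS CORT replicate 6 (-0.44, limma adjusted p = 0.165), and the unadjusted limma values were 0.0371, 0.0262 and 0.0444. No adjusted p passed 0.05. The cause was not tested.

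With replicate number as a block, IVS minus LV stayed at -0.39 (limma unadjusted p = 0.0237, adjusted p = 0.109), the LV difference was 0.56 (SE 0.21) and the IVS difference 0.40 (limma unadjusted p = 0.181). The numbers were not taken as pairs: between tissues same-numbered samples correlated with r from -0.21 to 0.63, with 6 of 16 over 0.1 and 6 best with their own number. In 15 of 16 cases, though, an LV sample and its best IVS match were each other's best within the treatment, a hint from the data and not the design that hearts may match under other numbers. No such pairing was used. Between treatments 3 of 8 in the LV and 6 of 8 in the IVS were over 0.1.

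Of the pathway genes in the IVS, 1 of 12 passed an unadjusted limma p of 0.05 with the processed signal (3.7% of all probes) and 1 of 13 without a brightness limit (3.54%), SMAD2 both times. With slide as a block 2 of 9 did (7.52%), SMAD2 (-0.21) and TGFBR3 (0.20), with unadjusted limma values of 0.0228 and 0.0458 and a limma adjusted p of 0.638 for both. Over all IVS probes, 419 passed that p, 879 with slide and 639 with replicate number as a block, and 0 passed after adjustment each time. Of the 5 probes most like INHA, 2 were shared when slide was kept. INHA was above the brightness limit on 32 of 32 arrays, and on 31 by the highest negative control spot.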
